A study of Mus musculus with 6 samples.

Results

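Enzymes that break down purines and pyrimidines were followed in liver RNA of mice with and without FMO5. The set was chosen by gene symbol and holds 10 of the 54446 genes listed in the count tables: Tymp, Upp1, Upp2, Dpyd, Dpys, Upb1, Pnp, Xdh, Uox and Guk1. All 10 passed the filter on low counts, as did 16734 genes in all. The data are 6 RNA-seq libraries, 1 from each of 3 WT C57BL/6J males and 3 Fmo5-/- males of 32 weeks of age, and the comparison asks how loss of FMO5, a flavin-containing monooxygenase, changes liver gene expression. The Fmo5-/- line was made on a C57BL/6J background by disrupting Fmo5. Cages of both genotypes stood side by side, standard chow was freely available, and livers were taken in the morning.

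Nucleotides that a cell no longer needs are stripped to nucleosides and then to free bases. Phosphorylases split the nucleoside: TYMP acts on thymidine and deoxyuridine, UPP1 and UPP2 act on uridine, and PNP acts on inosine and guanosine. The liver then opens the pyrimidine ring in a short chain of reactions, in which DPYD reduces uracil and thymine, DPYS hydrolyses the reduced ring and UPB1 releases beta-alanine or beta-aminoisobutyrate. Purine bases are oxidised by XDH to uric acid, and UOX, which humans lack, carries the mouse liver on to allantoin. GUK1 is not itself a breakdown enzyme: it is the kinase that turns GMP into GDP, a step in making GTP.

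Fmo5 itself was checked first. Its normalised read counts (reads scaled to a common library size) were 39808, 37405 and 30240 in WT mice and 1071, 1102 and 1194 in Fmo5-/- mice, a log2 fold change of -5.00 (SE 0.14), as the labels require. Counts on genes were between 44886286 and 52338675 per library. The 10 enzymes took 0.330% to 0.374% of them. For 9 of them counting error was below the spread between mice. For Upp1 it was as large: the mean raw count allows a coefficient of variation of 9.67% in WT and 8.20% in Fmo5-/- mice from counting alone, beside the observed 10.1% and 8.25%. Each library came from a different mouse. The p-values of edgeR and DESeq2 set the genotype difference against the spread between mice within genotypes, estimated with help from other genes. Hepatocyte markers were present in every library and none of 10 was called between genotypes by edgeR or DESeq2 (1 at an unadjusted p under 0.05), whereas 10 of 10 Kupffer cell and macrophage markers had a higher mean in Fmo5-/- mice. By edgeR 1 of these markers, Clec4f, passed the test, as it did in 2 of the 6 fits with a mouse left out. By DESeq2 9 of the 10 passed.

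Of the 10 enzymes, 1 was higher and 1 was lower in Fmo5-/- mice (edgeR quasi-likelihood test, adjusted p under 0.05 over all genes tested). The enzyme that rose was Tymp, at 2.23 times the WT level, and the one that fell was Guk1, by 27.0%. Among all 16734 genes tested, 0.675% were called higher and 0.693% lower. DESeq2 called the same 2 enzymes in the same directions, against 4.75% of genes called higher and 4.21% lower by that tool. Both genes are named in the study's own tables from these libraries, so their choice as members is not independent of the result. The other 8 enzymes did not pass: their fold changes lay between 0.774 for Dpyd and 1.23 for Upp1. The median log2 fold change of the 10 was 0.02, beside 0.01 for all genes tested, and 5 had a higher and 5 a lower mean in Fmo5-/- mice.

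**Figure D1:**
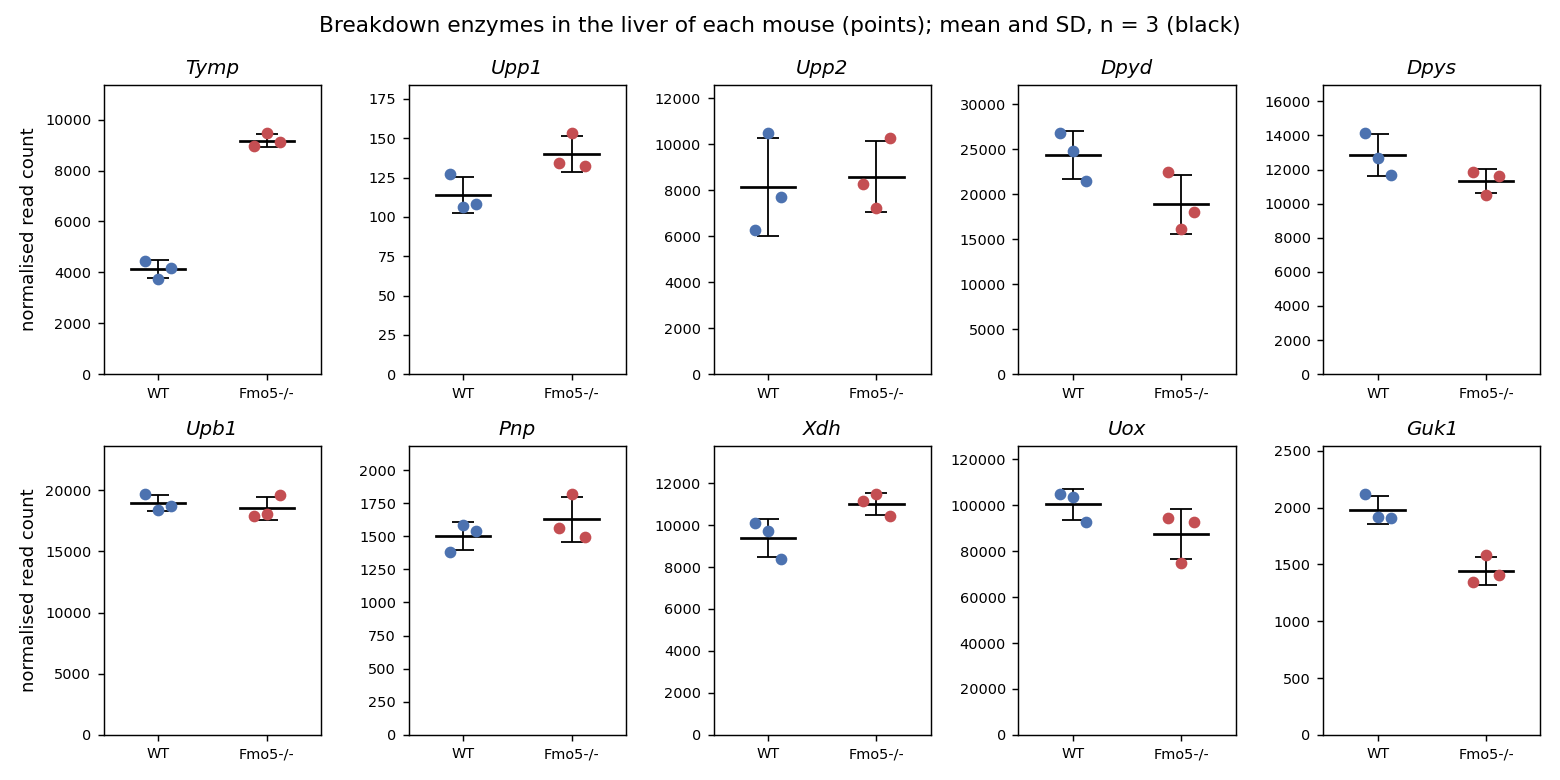
Normalised read count of each enzyme (y axis, from 0) in each of 3 WT (blue) and 3 Fmo5-/- (red) mice; black lines give the mean and SD. Tymp is the gene whose groups lie farthest apart, between 3754 and 4461 in WT mice and between 8952 and 9472 in Fmo5-/- mice, whereas Upp2 covers nearly the same range in both genotypes.

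Counted by overlap alone, the 3 mice of each genotype did not overlap for 4 of the 10 enzymes. For Tymp, Upp1 and Xdh the lowest Fmo5-/- mouse lay above the highest WT mouse, and for Guk1 the order was turned around. Over all genes tested, 13.9% were free of overlap in the higher and 13.5% in the lower direction. For a single gene, an exact two-sided permutation test of 3 mice against 3 cannot give a p below 0.1.

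Tymp, on chromosome 15 (mm10, 89371931 to 89377039, minus strand; ENSMUSG00000022615.7), encodes thymidine phosphorylase. Its normalised read counts were 4461, 3754 and 4157 in WT mice and 8952, 9472 and 9105 in Fmo5-/- mice. Every Fmo5-/- mouse was far above every WT mouse, and the 3 Fmo5-/- mice were close to one another, with a coefficient of variation of 2.91% beside 8.60% in WT mice. The log2 fold change was 1.15 (SE 0.09, 95% confidence interval 0.95 to 1.36; edgeR adjusted p = 7.82e-04), which is a 2.23-fold rise with an interval of 1.93 to 2.56. By p-value Tymp stood at rank 8 of the 16734 genes. Only 29 genes with a mean normalised read count of 500 or more, Tymp included, had a log2 fold change as high.

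Because Tymp is the enzyme whose level changed most, the 250 bases upstream of its RefSeq start site are shown (GRCm38.p6, the build of mm10, chr15:89377037-89377286, minus strand, read 5′ to 3′). Capitals mark each match to the letters CCAAT on either strand.

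Tymp upstream region: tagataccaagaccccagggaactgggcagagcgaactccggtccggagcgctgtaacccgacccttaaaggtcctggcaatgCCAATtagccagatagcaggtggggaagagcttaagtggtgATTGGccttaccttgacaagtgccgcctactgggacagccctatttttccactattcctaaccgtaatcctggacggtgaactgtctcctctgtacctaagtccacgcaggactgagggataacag

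The letters CCAAT, known as the CCAAT box, occur at bases -167 to -163 on the strand of the gene and at bases -126 to -122 on the opposite strand, counted back from the start site. The upstream regions of 33.8% of the 32851 start sites in the table hold these letters at least once. On either strand, none of 6 other motifs occurs in this window of Tymp: the E-box CACGTG (in 6.02% of all windows), the D-box TTATGTAA (0.819%), the interferon-stimulated response element GAAANNGAAA (2.98%), the antioxidant response element TGACNNNGC (10.2%), the GC box GGGCGG (32.7%) and the TATA box TATAAA (12.4%). A match is a run of letters and not a measured binding site, and the lack of one says nothing of a factor that acts elsewhere. RefSeq start sites were at hand for 8 of the 10 enzymes, with 12 windows between them. None of these 12 held the E-box, the D-box or the interferon-stimulated response element as spelled here, 7 held the GC box and 5 the CCAAT box. The windows are not independent: those of Upp1 that start at 9117758 and 9117853 overlap and hold the same GC box. The antioxidant response element occurred in 1 of the 12, at bases -42 to -34 of one of the 2 Guk1 start sites.

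The Tymp locus is crowded, and this bears on what was counted. Of its 2037 exon bases, 42.0% are shared with Sco2, a gene on the same strand for a mitochondrial copper protein, and 26.3% with Ncaph2, a condensin subunit gene on the opposite strand. The authors' counter assigns a read that falls in more than 1 gene to neither. By the annotation used here, the unstranded counts of Tymp thus come from the 1181 exon bases that it shares with no other gene. Sco2 received 22 counts in the 6 libraries together. Ncaph2 had a log2 fold change of -0.02 (SE 0.08; edgeR adjusted p = 0.924) in the same counts. In the columns that count reads of a single strand, where a read is compared only with genes of 1 strand and can count for Ncaph2 although Tymp or Sco2 lies opposite, the log2 fold change of Ncaph2 was 0.52 with one strand and 0.50 with the other (edgeR adjusted p = 0.0258 and 0.0245), and its mean normalised read count was 3629 and 3320 in place of 2348. Tymp was called in both of these columns as well. By edgeR none of the 11 tested genes within 100 kb of Tymp was called in the unstranded counts.

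Guk1, on chromosome 11 (59183875 to 59192212, minus strand; ENSMUSG00000020444.19), encodes guanylate kinase. Its normalised read counts were 2120, 1915 and 1905 in WT mice and 1342, 1582 and 1410 in Fmo5-/- mice. The groups did not overlap, and the gap between the lowest WT and the highest Fmo5-/- mouse was wider than the SD of either group (122 and 124). The log2 fold change was -0.45 (SE 0.09, 95% confidence interval -0.66 to -0.25), and the adjusted p of 0.0493 from edgeR lay just inside the threshold. The fall kept its direction in every alternative, but each of the 6 fits that left out a single mouse lost the call, with adjusted p from 0.0510 to 0.155. It was called in 5 of 13 alternatives in all, with adjusted p from 2.59e-04 to 0.155. By edgeR none of the 7 tested genes within 100 kb of Guk1 was called.

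**Figure D2:**
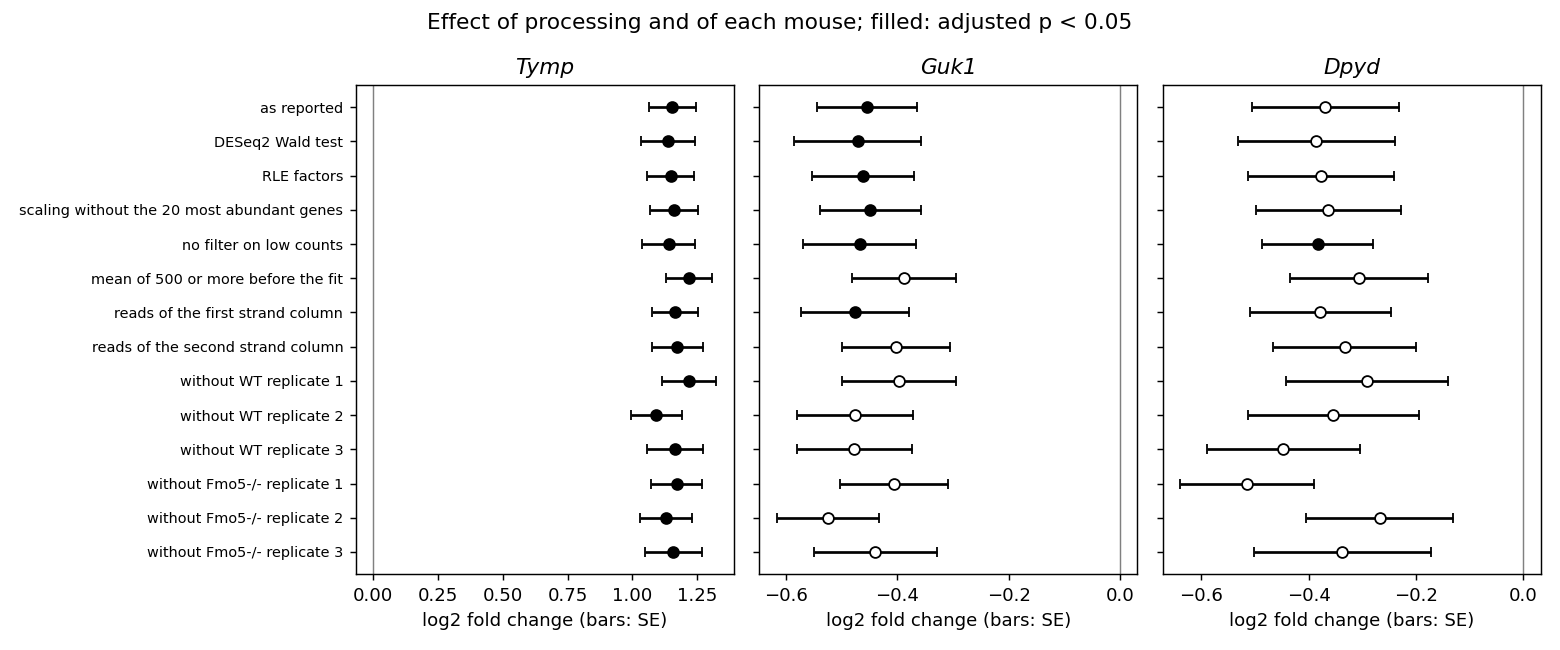
Log2 fold change of Tymp, Guk1 and Dpyd (x axes, which differ in range, with the SE as bars) as reported and under each alternative setting or with a mouse left out; filled points have an adjusted p under 0.05. Tymp stays between 1.09 and 1.22 and is filled throughout, Guk1 stays between -0.52 and -0.39 and is filled in only some rows, and Dpyd is filled once.

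Uridine phosphorylases come in a widely expressed form, UPP1, and a form of the liver, UPP2. Upp1 was the rarest of the 10 enzymes, with normalised read counts of 127, 106 and 108 in WT mice and 134, 153 and 133 in Fmo5-/- mice. Its groups did not overlap, yet the difference of 0.30 (SE 0.16; edgeR adjusted p = 0.331) on the log2 scale did not pass the test. It is the only one of the 10 with a mean below 500, the limit that the study set for its own lists. Upp2 had normalised read counts of 6277, 10485 and 7697 in WT mice and 8276, 7218 and 10271 in Fmo5-/- mice. The 2 groups covered nearly the same range, and the log2 fold change of 0.08 had an interval from -0.39 to 0.54 (edgeR adjusted p = 0.868). With a coefficient of variation of 26.3% in WT mice, Upp2 varied more between mice of a genotype than any other member did, and its SE of 0.20 was the widest of the 10.

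The 3 enzymes that open the pyrimidine ring all had a lower mean in Fmo5-/- mice, and none passed the test. Dpyd, the rate-limiting dihydropyrimidine dehydrogenase (chromosome 3, 118562129 to 119432924), had normalised read counts of 26770, 24810 and 21498 in WT mice and 22476, 16145 and 17972 in Fmo5-/- mice. A single Fmo5-/- mouse lay within the WT range and the other two lay below it. The log2 fold change was -0.37 (SE 0.14, interval -0.68 to -0.06) with an edgeR adjusted p of 0.164, and DESeq2 gave 0.0767. Only the fit without a filter on low counts called it, at an adjusted p of 0.00612, and in that fit 1989 genes were called in place of 229.

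Dpys, the dihydropyrimidinase, had normalised read counts of 14138, 12667 and 11691 in WT mice and 11864, 10527 and 11607 in Fmo5-/- mice, a log2 fold change of -0.18 (SE 0.10; edgeR adjusted p = 0.334). Upb1, the beta-ureidopropionase that ends the chain, had 19699, 18385 and 18748 in WT mice and 17896, 18051 and 19621 in Fmo5-/- mice. A single Fmo5-/- mouse lay within the WT range and the other two lay below it. Its log2 fold change of -0.03 had an interval from -0.23 to 0.16, or 0.856 to 1.12 as a fold change, and its SE of 0.09 was the smallest of the 10. Its sign turned when only genes with a mean of 500 or more entered the fit (0.03). Along the chain, the fold change was thus 0.774 for the first enzyme, 0.883 for the second and 0.978 for the last, and whether these differ from one another was not tested.

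In the purine branch no enzyme passed the test. Pnp, the purine nucleoside phosphorylase, had normalised read counts of 1382, 1588 and 1538 in WT mice and 1564, 1820 and 1497 in Fmo5-/- mice, with overlap and a log2 fold change of 0.12 (SE 0.10; edgeR adjusted p = 0.539). Pnp shares 18.0% of its exon bases with an overlapping gene model, Gm49342, which received 0 counts, and reads of those bases count for neither. Its paralog Pnp2 lies within its bounds, shares none of its exon bases and received 130 counts in the 6 libraries together. Of the 75-base stretches of Pnp transcripts, 19.1% also occur in other genes, and only Tymp has a larger share, at 39.9%. Xdh, the xanthine dehydrogenase that makes uric acid, had 10086, 9706 and 8378 in WT mice and 11126, 11486 and 10438 in Fmo5-/- mice. Its groups did not overlap, and the difference was 17.3% (log2 fold change 0.23, SE 0.10) with an unadjusted p of 0.0401 and an edgeR adjusted p of 0.205. Uox, the urate oxidase, had 104956, 103695 and 92544 in WT mice and 94370, 74875 and 92820 in Fmo5-/- mice. Those ranges overlapped, and the log2 fold change was -0.20 (SE 0.12; edgeR adjusted p = 0.353). At an unadjusted p under 0.05 stood 4 of the 10 enzymes (Tymp, Guk1, Dpyd and Xdh), as did 3647 of all 16734 genes.

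**Figure D3:**
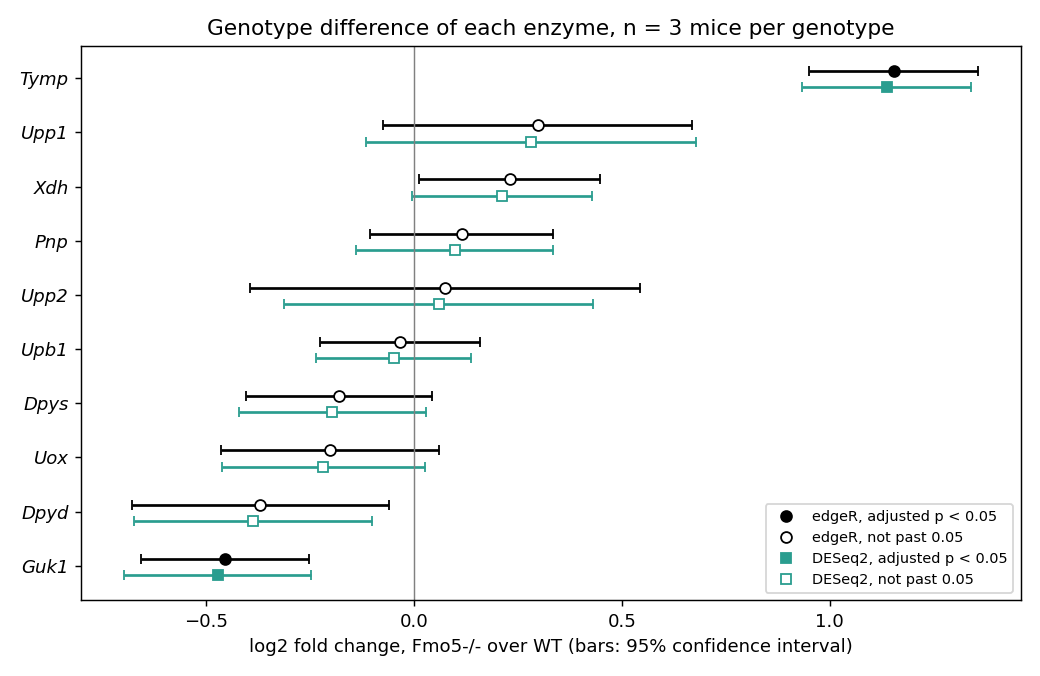
Log2 fold change, Fmo5-/- over WT (x axis), of each enzyme with its 95% confidence interval from edgeR (circles) and DESeq2 (squares); filled symbols have an adjusted p under 0.05. Tymp (1.15) and Guk1 (-0.45) are filled for both tools, and the other 8 enzymes are open for both.

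Levels of different enzymes were compared as RPKM, which divides the counts by exon length and library size. In WT mice Uox was by far the highest, at 411 ± 28.0 (SD, n = 3). Over all 6 libraries it took 49.5% to 55.4% of the counts of the 10 enzymes. The 3 ring-opening enzymes came next, with Dpys at 70.3 ± 6.75, Upb1 at 57.2 ± 2.05 and Dpyd at 56.2 ± 6.15 RPKM. Ranges of the last 2 overlapped. Tymp followed at 41.5 ± 3.57 RPKM. Guk1 (22.1 ± 1.36), Upp2 (21.5 ± 5.65) and Xdh (21.0 ± 2.0) could not be ordered, since the ranges of neighbours overlapped, and Pnp (7.74 ± 0.553) and Upp1 (1.19 ± 0.121) were lowest. In Fmo5-/- mice Uox stood at 358 ± 44.4 RPKM. With summed exon lengths Tymp, at 92.3 ± 2.69 RPKM, had moved from the fifth to the second place. It stood above Dpys (62.1 ± 3.89), Upb1 (55.9 ± 2.88) and Dpyd (43.5 ± 7.52) in every Fmo5-/- mouse. There Guk1, at 16.1 ± 1.38 RPKM, stood below Xdh (24.6 ± 1.19) and Upp2 (22.7 ± 4.09).

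The place of Tymp depends on its length. When only the exon bases shared with no other gene were taken, a choice made after seeing the data, Tymp stood at 71.6 RPKM in WT and 159 RPKM in Fmo5-/- mice, beside 70.3 RPKM in WT mice for Dpys, which shares no exon bases. In the annotation used here, the unstranded counts of Tymp come from these bases alone. By the mean on this length, Tymp was next after Uox in both genotypes, with Dpys close to it in WT mice. With the length of the longest transcript instead, Tymp kept means of 41.5 and 92.3 RPKM, and by the mean the second place was lost. In Fmo5-/- mice the mean was 102 RPKM for Upb1 and 94.2 for Dpys, both above that of Tymp, and 86.1 for Dpyd. These are orders of means, and the means of Dpys and Tymp lie too close to order the 2 genes in each mouse. In WT mice Upp2, at 58.7 RPKM, stood above both Tymp and Guk1 (37.6 RPKM) on that scale.

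**Figure D4:**
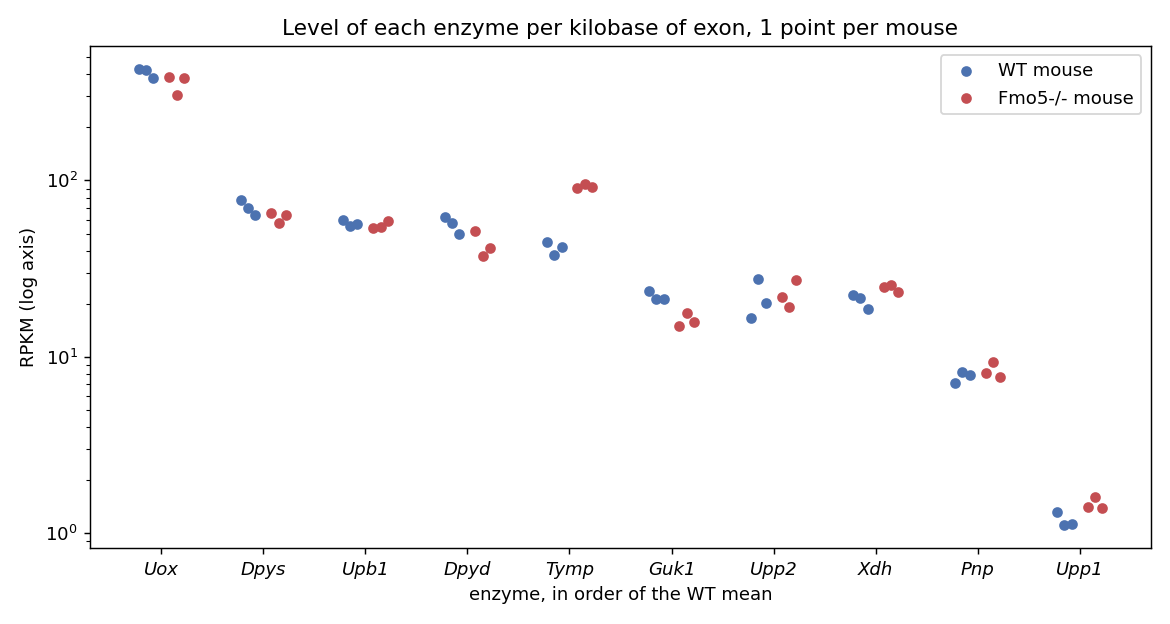
RPKM of each enzyme (log axis) in each mouse, in the order of the WT mean, with WT mice in blue and Fmo5-/- mice in red. The enzymes span from 1.19 RPKM for Upp1 to 411 RPKM for Uox in WT mice, and the Fmo5-/- points of Tymp stand above those of the 3 enzymes next to its left.

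Ratios of RPKM within a mouse do not depend on the scaling of its library. The 9 ratios computed were picked with the values known, so they are descriptions. Tymp to Dpyd was 0.727, 0.660 and 0.843 in WT mice and 1.74, 2.56 and 2.21 in Fmo5-/- mice, a rise of the geometric mean by 2.90 times. The height of a ratio depends on the exon lengths used, but its change between genotypes does not. With only exon bases shared with no other gene, the WT means were 71.6 RPKM for Tymp and 56.2 RPKM for Dpyd. By that length Tymp already stood above Dpyd in the WT mean. Xdh to Uox was 0.0524, 0.0511 and 0.0494 in WT mice and 0.0643, 0.0837 and 0.0614 in Fmo5-/- mice, so that the enzyme that makes uric acid stood higher in relation to the one that removes it in each Fmo5-/- mouse. Xdh to Guk1 and Tymp to Upp2 were also free of overlap. As Tymp, Xdh and Guk1 were each free of overlap alone, these ratios add little to that. The share of all gene pairs free of overlap was not computed. The other 5 ratios overlapped between genotypes, among them Dpyd to Dpys (0.799 in WT and 0.699 in Fmo5-/- mice) and Dpys to Upb1 (1.23 and 1.11).

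The rest of nucleotide metabolism was read from lists of related genes. Beside the counts of each list stand the shares over all genes tested. EdgeR called 0.675% of them higher and 0.693% lower, and DESeq2 4.75% and 4.21%. At an unadjusted p under 0.05 stood 3647 of 16734 genes. Of 8 tested genes of the other steps of pyrimidine breakdown, none was called by edgeR (3 higher, 5 lower, median log2 fold change -0.09), 3 had an unadjusted p under 0.05, and DESeq2 called 1 (Abat, adjusted p = 0.0337). The 3 of smallest p were Abat, Nt5c3b and Aldh6a1. Abat, the transaminase that takes beta-alanine onwards, had -0.34 (SE 0.11, edgeR adjusted p = 0.112). The nucleotidase gene Nt5c3b had 0.56 (SE 0.19, edgeR adjusted p = 0.132). Aldh6a1, which acts on the product of the transamination by ABAT, had -0.35 (SE 0.12, edgeR adjusted p = 0.144). Of 12 tested genes of the other steps of purine breakdown, none was called by edgeR (4 higher, 8 lower, median -0.05), 3 had an unadjusted p under 0.05, and DESeq2 called 1 (Itpa, adjusted p = 0.0346). Itpa, which clears inosine triphosphate, had -0.34 (SE 0.09; adjusted p = 0.0775 from edgeR), the adenosine deaminase Ada had -0.53 (SE 0.21; 0.181) and Urah, which follows UOX, had -0.21 (SE 0.09; 0.219).

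Salvage, which returns bases and nucleosides to nucleotides, gave no call by edgeR either, with 3 purine and 4 pyrimidine salvage genes at an unadjusted p under 0.05. DESeq2 called 4 of them: Aprt (adjusted p = 0.0155) and Cmpk2 (0.0218) higher, and Adk (0.0231) and Cmpk1 (0.00375) lower. Of 6 purine salvage genes, 3 were higher and 3 lower (median log2 fold change -0.03): Aprt, which recovers adenine, had 0.47 (SE 0.12; edgeR adjusted p = 0.0710), the adenosine kinase Adk had -0.31 (SE 0.09; 0.104) and Hprt, which recovers hypoxanthine and guanine, had -0.20 (SE 0.08; 0.167). Of 8 pyrimidine salvage genes, 3 were higher and 5 lower (median -0.06): the cytosolic UMP/CMP kinase Cmpk1 had -0.39 (SE 0.08; 0.0554), the mitochondrial kinase Cmpk2, which is also on the list of interferon-stimulated genes, had 0.50 (SE 0.13; 0.0778) and the uridine-cytidine kinase Uck1 had -0.40 (SE 0.14; 0.142). None of 13 purine synthesis genes (6 higher, 7 lower, median -0.10) and none of 6 pyrimidine synthesis genes (2 higher, 4 lower, median -0.02) was called by edgeR or DESeq2, with 4 and 0 of them at an unadjusted p under 0.05. EdgeR called 1 purine synthesis gene without a filter on low counts and 1 without Fmo5-/- replicate 3. The smallest adjusted p from edgeR in these were 0.135 for Impdh1 (0.59, SE 0.20), an IMP dehydrogenase, 0.145 for Adss (-0.24, SE 0.08), 0.161 for Gmps (-0.28, SE 0.10), 0.346 for Ctps2 (0.27, SE 0.15), 0.541 for Cad (-0.16, SE 0.13) and 0.555 for Ctps (-0.18, SE 0.16).

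The nucleotide kinases other than Guk1 gave no call by edgeR among 11 tested (3 higher, 8 lower, median log2 fold change -0.14), with 4 at an unadjusted p under 0.05. DESeq2 called 2 of them lower, Ak3 (adjusted p = 0.0241) and Ak4 (0.0254). Ak7 had 0.95 (SE 0.24; edgeR adjusted p = 0.0770) at a low mean of 18.8 normalised read counts in WT mice, and the mitochondrial adenylate kinases Ak4 and Ak3 had -0.44 (SE 0.13; 0.0941) and -0.31 (SE 0.09; 0.0961). Of 10 tested nucleoside and urate carriers, edgeR called 1 lower and none higher (4 higher, 6 lower in mean, median -0.27), 8 had an unadjusted p under 0.05, and DESeq2 called 4 lower. In 5 of the 10 the genotypes did not overlap, 1 higher and 4 lower. Over all genes tested, these shares were 13.9% higher and 13.5% lower. The gene that fell by both tools was Slc28a1, a concentrative carrier of pyrimidine nucleosides on chromosome 7. Its normalised read counts were 60.4, 72.5 and 57.3 in WT mice and 20.5, 22.9 and 23.6 in Fmo5-/- mice. These rest on 56 to 65 raw reads in each WT and 22 to 25 in each Fmo5-/- library, and the groups stood well apart. The log2 fold change was -1.50 (SE 0.23; edgeR adjusted p = 0.0243), with adjusted p from 5.07e-05 to 0.105 over its 12 alternatives, and it was called in 2 of the 6 fits with a mouse left out. The urate exporter Abcg2 had -0.45 (SE 0.09; 0.0509) and the hepatic urate carrier Slc2a9 -0.32 (SE 0.07; 0.0640). Both were without overlap. DESeq2 called them, at adjusted p of 0.00102 and 0.0123, and also Slc22a7, an organic anion carrier (-0.81, SE 0.24; adjusted p = 0.129 by edgeR and 0.00266 by DESeq2). Aprt, Ak3, Ak4, Abcg2 and Slc2a9 are named in the study's tables from these libraries.

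**Figure D5:**
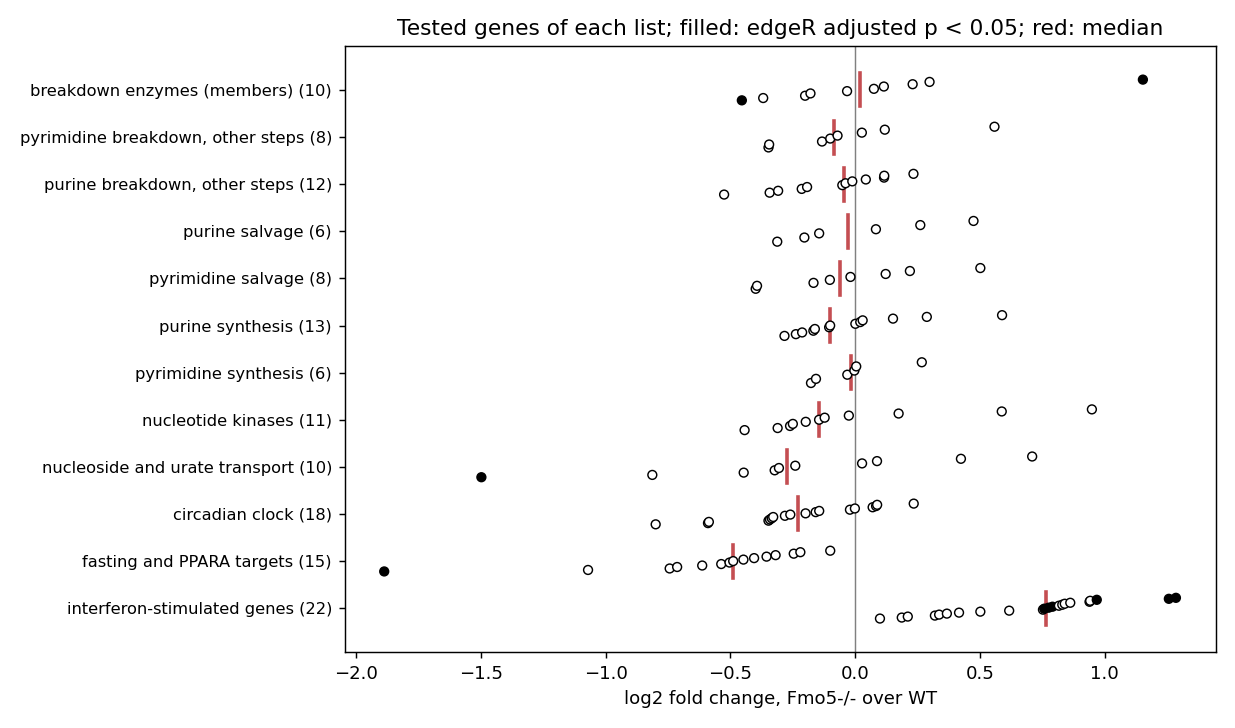
Log2 fold change, Fmo5-/- over WT (x axis), of each tested gene (points) in the 10 enzymes and in 11 lists, with the number tested in brackets; filled points have an edgeR adjusted p under 0.05 and red lines give the median. The lists of nucleotide metabolism hold genes on both sides of 0, with medians from -0.27 (transport) to -0.02 (pyrimidine synthesis) and Slc28a1 as the single point among them, outside the 10 enzymes, that edgeR called, while all 22 interferon-stimulated genes lie above 0.

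Genes of other groups differed by genotype in the same livers, and their part in the change of Tymp or Guk1 was not tested. Among 22 interferon-stimulated genes, 22 had a higher mean in Fmo5-/- mice (median log2 fold change 0.77) and edgeR called 6: Irf7 (0.76), Usp18 (0.97), Ifi44 (1.26), Oas1a (1.29), Ifit1 (0.79) and Rtp4 (0.78). Irf7 was called in 6 of 6 fits with a mouse left out, Usp18 and Ifi44 in 5, Rtp4 in 2 and Oas1a and Ifit1 in 1. The number called was 15 with DESeq2, 17 without a filter on low counts and 1 when only genes with a mean of 500 or more entered the fit. With a mouse left out, it ran from 1 (without Fmo5-/- replicate 1) and 3 (without WT replicate 1, WT replicate 2 or Fmo5-/- replicate 2) to 9 (without Fmo5-/- replicate 3). Markers of Kupffer cells and macrophages summed to 264 to 305 CPM (counts scaled to library size) in WT and 387 to 714 CPM in Fmo5-/- mice, with 10 of 10 higher, and none was at 0 in all libraries. Markers of T and NK cells summed to 5.90 to 9.40 CPM and 10.2 to 30.2 CPM, with 10 of 10 higher, none called by edgeR (6 at an unadjusted p under 0.05) and 4 called by DESeq2. Neutrophil markers, of which only 2 of 10 were tested, summed to 1.11 to 2.65 CPM in WT and 2.76 to 6.06 CPM in Fmo5-/- mice, and intestine markers, of which 2 of 6 were tested, to 84.3 to 111 CPM and 55.3 to 71.1 CPM. EdgeR called none of these, and DESeq2 called S100a9 higher and Fabp2, which makes up nearly all of the intestine sum, lower. In whole liver, more cells of a type cannot be told from more RNA per cell.

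Fasting and PPARA target genes had a lower mean in Fmo5-/- mice in 15 of 15 cases (median log2 fold change -0.49), with 1 called by edgeR and 5 by DESeq2. The 1 called by edgeR was the hepatokine gene Fgf21 (-1.89, SE 0.37; edgeR adjusted p = 0.0494), which edgeR called in 2 of the 6 fits with a mouse left out. Plin5, which encodes a coat protein of lipid droplets, had the next smallest p (-0.50, SE 0.11; edgeR adjusted p = 0.0588). None of 18 circadian clock genes was called by edgeR or DESeq2, and 2 had an unadjusted p under 0.05 (4 higher, 14 lower, median -0.23). Those of smallest p were Clock (-0.26, SE 0.09; edgeR adjusted p = 0.132), Hlf (-0.34, SE 0.12; 0.152) and Nr1d2 (-0.33, SE 0.16; 0.275). WT replicate 2 stood apart in several of them, of which 2 are given here as chosen after their values were seen. Arntl, a core activator of the clock, had normalised read counts of 1299, 497 and 1347 in WT mice and 1168, 983 and 948 in Fmo5-/- mice, and the clock output gene Dbp had 557, 1772 and 330 in WT mice and 385, 324 and 818 in Fmo5-/- mice. The same WT mouse had the highest count of Upp2. Without it edgeR called 1 of the 18 clock genes, and without a filter on low counts 2. Without this mouse the log2 fold change of Upp2 was 0.30 (SE 0.17; edgeR adjusted p = 0.387) and that of Tymp 1.09 (SE 0.10; adjusted p = 0.00375), and the part of this mouse in the spread of Upp2 beyond these values was not tested.

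Dpyd and Uox lie on chromosome 3, as does Fmo5 (97628804 to 97655282), at 20.9 and 48.9 Mb from it. On that chromosome 40 of 866 tested genes were called (4.62%, 17 higher and 23 lower), against 1.19% of genes on all others. Neither Dpyd nor Uox was called, and edgeR called no tested neighbour within 100 kb of any of the 10 enzymes, whereas DESeq2 called 1. Tymp and Guk1 lie on other chromosomes.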

How the data were processed

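RNA-seq was done on liver of 3 WT and 3 Fmo5-/- mice, 1 library per mouse. The authors clipped adapters from single reads of 75 bases, mapped them to mm10 with STAR and deposited STAR's raw read counts per gene, with reads that fall in several genes left out. The authors' comparison table has signal columns (counts divided by a DESeq2 size factor), log2 fold changes with errors, a score (the Wald statistic) and p-values. These comparison columns were not used, and the deposited signal columns served only to check that the unstranded counts are the ones behind them. Other columns deposited by the authors count reads of 1 strand.

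Unstranded counts were filtered by filterByExpr (minimum count 10), scaled with TMM factors and tested with the quasi-likelihood fit (robust) of edgeR 4.0.16 (R 4.3.3), with Benjamini-Hochberg adjustment over 16734 genes. A gene was called at an adjusted p under 0.05. Tests are two-sided, intervals are 95% confidence intervals. The fits were also tested on simulated data. Normalised read counts are counts divided by the effective library size, times its mean. RPKM used summed exon lengths of GENCODE vM21, which holds 54409 of 54446 identifiers when their version is ignored. With the same version it holds 53229. The deposited counts use an older release, so exon lengths and overlaps between genes can differ from those in the counting. Promoter sequences are from RefSeq (GRCm38.p6).

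Libraries held 67753857 to 75632821 reads, and 66.2% to 69.2% of these were assigned to genes. Alternatives were DESeq2 1.42.0, other scalings and filters, the columns of 1 strand and leaving out each mouse. Members and lists were chosen with earlier results of these data known. Named genes were the 10 enzymes, Fmo5, called neighbours within 100 kb and, per list, each called gene and those of smallest p up to 3. One gene that this rule names is not reported here.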

Additional observations from a re-analysis of the deposited data

How the results depend on the processing

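Tymp was called in 13 of 13 alternatives (log2 fold change 1.09 to 1.22), and leaving out a mouse never lost it. Guk1 lost its call with a limit of 500 on the mean before the fit (-0.39, adjusted p = 0.0734), with the second strand column (-0.40, adjusted p = 0.0684) and without any of the 6 mice (-0.52 to -0.40), which left 0 members called lower. Without a filter on low counts, Dpyd was called too (-0.38), which made 2. Leaving out a mouse gave log2 fold changes of -0.0760 to 0.301 for Upp2 and -0.0783 to 0.00254 for Upb1 (0.00254 without WT replicate 1, and 0.0320 with the limit of 500). Upp2 was at -0.0749 without WT replicate 1 and at -0.0760 without Fmo5-/- replicate 3. Members without overlap in the lower direction numbered 1 to 4 with a mouse left out. Genes called higher and lower were 739 and 656 with DESeq2, 1093 and 896 without a filter, 30 and 23 with the limit of 500, and 186 higher with the first strand column. They ranged from 16 higher and 15 lower without Fmo5-/- replicate 1 to 606 higher and 157 lower without Fmo5-/- replicate 3. On chromosome 3 the share called was 15% with DESeq2, 8.21% without a filter, 2.89% with the limit of 500, and 1.24% to 6.12% without a mouse. Neighbours called numbered 1 with DESeq2, 3 without a filter, 1 with each strand column (Ncaph2, beside Tymp) and 0 to 1 without a mouse. Ncaph2 was at 0.52 and 0.50 with the strand columns, 0.0483 with the limit of 500 and -0.0575 to 0.0208 without a mouse. Called genes of nucleotide metabolism outside the enzymes were, for pyrimidine breakdown, purine breakdown, purine salvage, pyrimidine salvage, kinases and transport in turn, 1, 1, 2, 2, 2 and 4 with DESeq2 and 2, 1, 2, 3, 2 and 3 without a filter, beside 0, 0, 0, 0, 0 and 1 as reported. Purine synthesis had 1 called without a filter, and it and pyrimidine salvage 1 each without Fmo5-/- replicate 3. Purine salvage had 1 with the first strand column. Transport had 2 with RLE factors and with the scaling without the 20 most abundant genes, and 0 with the limit of 500, the second strand column and without WT replicate 1 or 2 or Fmo5-/- replicate 1 or 2. Fasting and PPARA targets had 7 without a filter, and 0 with the limit of 500, the second strand column and without WT replicate 1 or 2 or Fmo5-/- replicate 1. The cause of these shifts was not tested. With the longest transcript as length, RPKM in WT mice was 1.83 for Upp1, 58.7 for Upp2, 111 for Dpyd, 107 for Dpys, 104 for Upb1, 10.5 for Pnp, 24.8 for Xdh, 752 for Uox and 37.6 for Guk1. With exon bases of no other gene, it was 71.6 for Tymp and 9.90 for Pnp. No paired analysis was made, because each library came from a different mouse and no label ties a WT mouse to an Fmo5-/- mouse. The replicate numbers used here only tell the mice of a genotype apart. In fits with a genotype at 2 mice, these were assumed to vary like the others.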
